A study of Mus musculus with 15 samples.

Results

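Transcripts used as surface or serum markers of liver tumours were followed through mouse livers carrying oncogene combinations. They are Afp, Gpc3, Golm1, Prom1, Robo1, Ly6d, Mdk, Cd24a and Scd2, a list of 9 gene symbols among the 24411 symbols counted in every library. The list names diagnostic markers of hepatocellular carcinoma and hepatoblastoma. The rule uses no measured value, but the members were chosen with earlier results of these data known. Counts and medians of the members are therefore a description and no independent evidence. Liver RNA of male FVB/NJ mice was sequenced in 5 groups of 3 libraries each. The WT group was wild-type FVB liver. The CTNNB1_NFE2L2_MET group carried S45Y-CTNNB1, G31A-NFE2L2 and hMET, a mutant β-catenin, a mutant NRF2 and human MET, the receptor of hepatocyte growth factor. The CTNNB1_MET group carried S45Y-CTNNB1 with hMET, the CTNNB1_NFE2L2 group S45Y-CTNNB1 with G31A-NFE2L2, and the NFE2L2_MET group G31A-NFE2L2 with hMET. The labels name the tissue as liver in all groups and give no age, vector, promoter, time of harvest, tumour load or number of animals, and nothing in them says that the samples of a group are separate mice, so every p refers to the spread among samples, which may be technical. In whole liver, more cells of a type and more RNA per cell cannot be told apart.

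Afp and Gpc3 are oncofetal genes, active in fetal liver, silenced after birth and switched on again in many liver tumours. Alpha-fetoprotein, the product of Afp, is the fetal relative of albumin and a classical serum marker. Gpc3 encodes glypican-3, a heparan sulfate proteoglycan anchored to the outer membrane, and Golm1 encodes a Golgi membrane protein that is shed into serum. Prom1 encodes prominin-1 (CD133), a membrane protein of progenitor cells and bile duct epithelium, and Robo1 encodes a receptor of the Slit guidance ligands. Ly6d and Cd24a encode small proteins held at the surface by a lipid anchor, better known from lymphoid cells, and Mdk encodes midkine, a secreted heparin-binding growth factor. Scd2 encodes a desaturase that makes monounsaturated fatty acids and is abundant in fetal tissues.

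The promoters of the members differ in base composition and in the motifs they hold. RefSeq tables (GRCm38.p6) gave promoters for 5 of the 9 members, each from 250 bases before to 50 bases after the start. The other members are Ly6d, Mdk, Cd24a and Scd2. The promoters of Afp (chr5:90490464-90490763, plus strand) and Gpc3 (chrX:52613925-52614224, minus strand) are shown because these transcripts moved together, and those of Prom1 (chr5:44101687-44101986, minus strand, the first of 2) and Robo1 (chr16:72662899-72663198, plus strand) because both were highest where CTNNB1 and MET were combined. Capitals mark matches to the motifs searched, and lower case all other bases.
Afp: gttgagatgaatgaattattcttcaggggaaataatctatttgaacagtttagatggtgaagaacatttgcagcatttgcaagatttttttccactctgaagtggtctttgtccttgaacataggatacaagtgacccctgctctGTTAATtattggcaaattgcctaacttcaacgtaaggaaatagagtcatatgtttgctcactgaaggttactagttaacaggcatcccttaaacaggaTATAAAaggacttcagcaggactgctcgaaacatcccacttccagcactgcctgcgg
Gpc3: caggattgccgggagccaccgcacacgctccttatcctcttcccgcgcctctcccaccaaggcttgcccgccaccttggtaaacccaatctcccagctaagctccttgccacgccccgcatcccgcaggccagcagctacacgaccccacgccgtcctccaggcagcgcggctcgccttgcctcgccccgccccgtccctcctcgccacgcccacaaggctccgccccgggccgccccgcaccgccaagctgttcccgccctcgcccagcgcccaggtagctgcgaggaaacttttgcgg
Prom1: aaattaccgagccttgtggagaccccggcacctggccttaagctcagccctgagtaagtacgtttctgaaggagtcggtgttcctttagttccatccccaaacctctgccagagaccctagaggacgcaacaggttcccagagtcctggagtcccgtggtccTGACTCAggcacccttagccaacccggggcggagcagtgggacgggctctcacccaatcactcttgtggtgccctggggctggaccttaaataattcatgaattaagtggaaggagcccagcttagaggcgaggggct
Robo1: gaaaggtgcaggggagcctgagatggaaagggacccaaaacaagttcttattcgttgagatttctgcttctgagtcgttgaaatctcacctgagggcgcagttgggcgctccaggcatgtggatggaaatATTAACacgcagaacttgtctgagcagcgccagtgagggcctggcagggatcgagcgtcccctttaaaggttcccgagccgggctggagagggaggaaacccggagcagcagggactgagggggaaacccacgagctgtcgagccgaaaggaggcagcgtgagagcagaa
Afp holds the HNF1 half-site GTTAAT upstream of the TATA motif TATAAA, which lies 7 bases before the RefSeq start. The GENCODE start of Afp, at 90490737, lies inside the window and downstream of the RefSeq start. Robo1 holds the half-site on the other strand 120 bases before its RefSeq start. That start lies inside the gene, far downstream of the GENCODE start at 72308306. No other Robo1 window was given, so the promoter at the GENCODE start was not searched. Across 32851 promoters of the same length, 7.1% held GTTAAT on either strand and 8.32% held TATAAA on their own strand. Prom1 holds the AP-1 site, searched as TGACTCA or TGAGTCA, 88 bases before its first RefSeq start, and 5.2% of all promoters held one. Its other promoter holds the antioxidant response core TGACNNNGC, searched on both strands like the AP-1 site, which 12.4% of promoters held. The GENCODE start of Prom1, at 44102032, lies upstream of both windows, so the bases before that start were not searched. The TCF/LEF motif, searched on both strands as CTTTGAA or with AT, TA or TT as its last pair of letters, was in none of the members' windows and in 16.9% of all promoters. Gpc3 and Golm1 held no match to any of these motifs. Bases G and C made up 40% of the Afp window and 70.7% of the Gpc3 window.

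Each library held between 14084343 and 20702618 counts over genes. Levels are CPM, counts scaled to library size after TMM adjustment, and changes are log2 fold changes ± standard error from edgeR's quasi-likelihood test over all 14098 tested genes, with a Benjamini-Hochberg adjusted p under 0.05 as the threshold. All 9 members passed the filter on low counts. WT replicate 3 was below the other WT libraries in summed stellate cell markers (296 CPM against 826 and 809) and cholangiocyte markers (75.6 CPM against 169 and 161). Over all genes, WT replicate 2 was the furthest from the others. The chi-square per gene between libraries was 91.9 and 108 for its pairs, and 36.8 for replicates 1 and 3. Replicate 2 also differed in summed neutrophil markers (6.23 CPM against 1.58 and 1.99) and erythroid markers (18.7 CPM against 27.5 and 27.6). Hepatocyte markers were high in every group, at 97319 CPM in WT summed over 10 genes, 39104 in CTNNB1_NFE2L2, 75386 in CTNNB1_NFE2L2_MET, 143123 in CTNNB1_MET and 170716 in NFE2L2_MET. Alb carried much of these sums, at 50866 CPM in WT and 123472 in NFE2L2_MET. Against WT, 8 of the 10 genes were called lower and none higher in CTNNB1_NFE2L2_MET (median -1.06), and likewise in CTNNB1_NFE2L2 (median -1.04). In CTNNB1_MET 2 were higher and none lower (median -0.15), and in NFE2L2_MET 2 and 1 (median -0.09). The shares of all genes are given below.

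Against WT, 6 of the 9 markers rose in each group that carried CTNNB1 and 5 rose in NFE2L2_MET, and none fell. Afp, Gpc3, Golm1, Prom1 and Ly6d passed in all 4 models. Robo1 was called only in the groups with both CTNNB1 and MET, Cd24a only in CTNNB1_NFE2L2, and Mdk and Scd2 in none. Some alternative fits did call Scd2, as given below. Among all tested genes, CTNNB1_NFE2L2_MET had 26.5% called higher and 23.4% lower, CTNNB1_MET 11.0% and 6.22%, CTNNB1_NFE2L2 24.5% and 24.2%, and NFE2L2_MET 13.5% and 9.89%. The median change of the 9 members was 4.83, 3.57, 3.13 and 2.31 in the same order, where the median of all tested genes was -0.02, -0.00, -0.01 and -0.00.

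**Figure D1:**
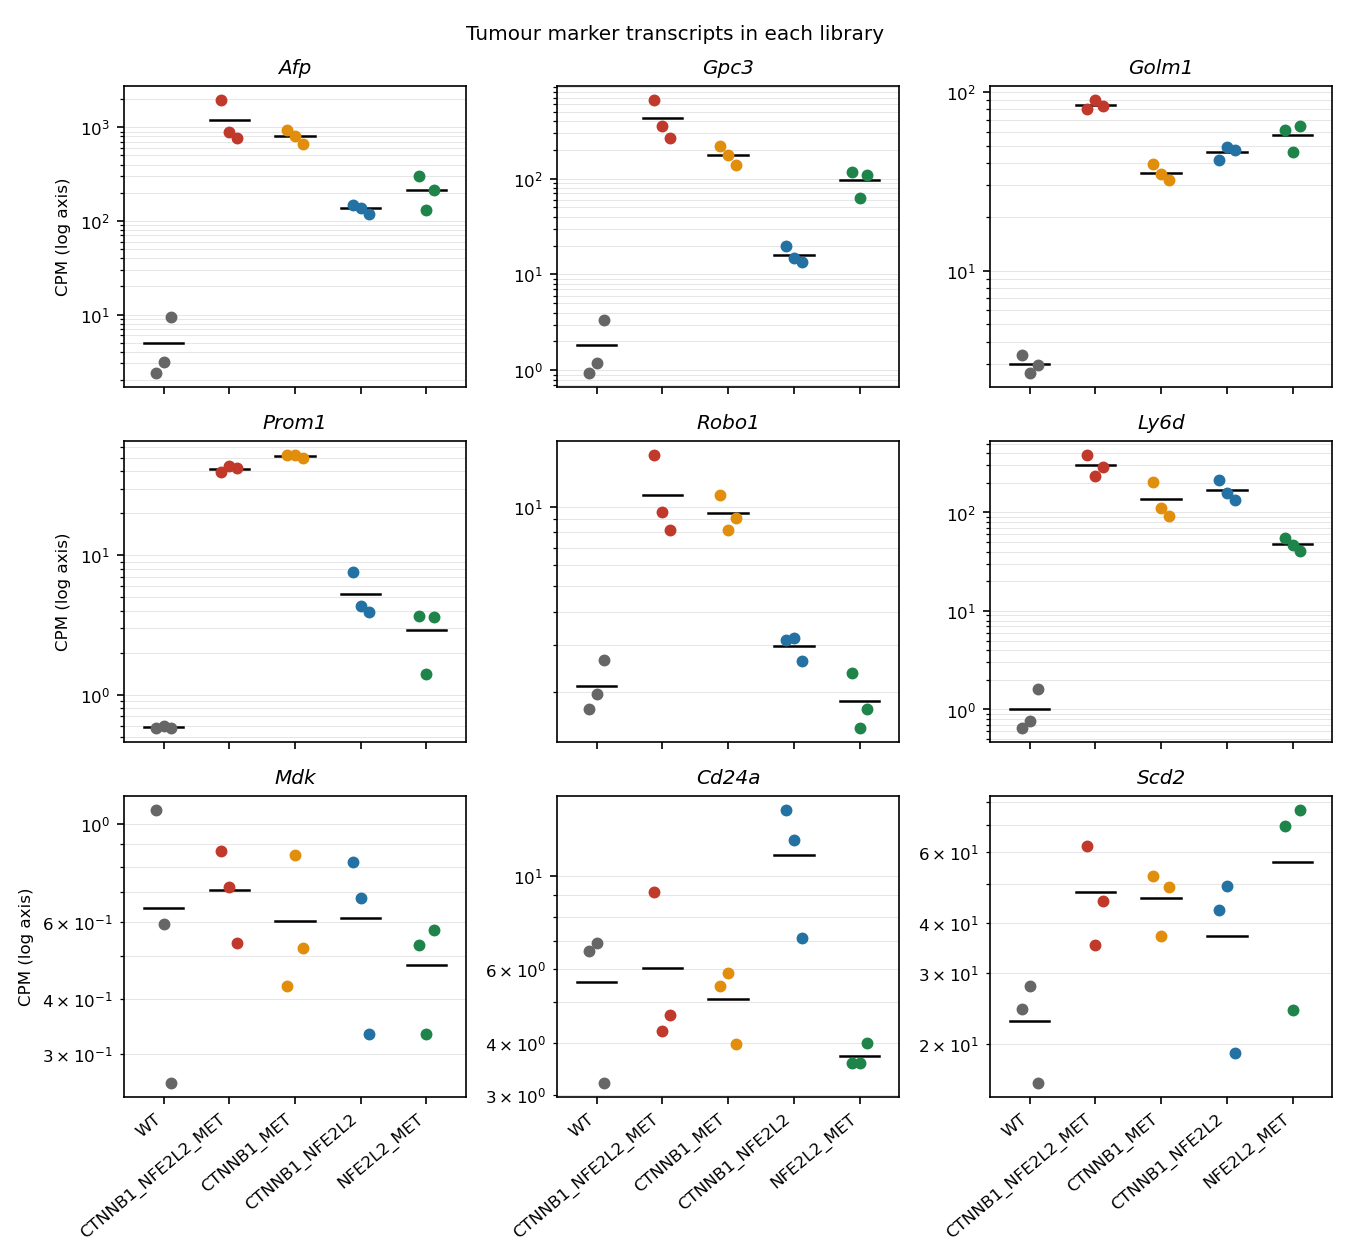
CPM of each marker in every library on a log axis, by group, with 1 dot per library and a line at the mean of 3. Afp, Gpc3, Golm1, Prom1 and Ly6d of every model library lie above all WT libraries, whereas the groups overlap for Mdk.

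Between the models, CTNNB1_NFE2L2_MET was called higher than each double model in some markers and lower in none. It exceeded NFE2L2_MET in 6 of 9 members, where 16.4% of all genes were higher and 14.3% lower. It exceeded CTNNB1_MET in 3 (18.4% and 15.4% of all genes) and CTNNB1_NFE2L2 in 5 (13.1% and 11.8%). Of the double models, CTNNB1_MET was higher than NFE2L2_MET in 4 members and lower in 1, with 6.96% of all genes higher and 7.36% lower. CTNNB1_NFE2L2 was higher than NFE2L2_MET in 3 and lower in 1 (18.3% and 18.9% of all genes), and higher than CTNNB1_MET in 2 and lower in 4 (17.9% and 17.2%). These comparisons share groups, so the counts are not separate observations.

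**Figure D2:**
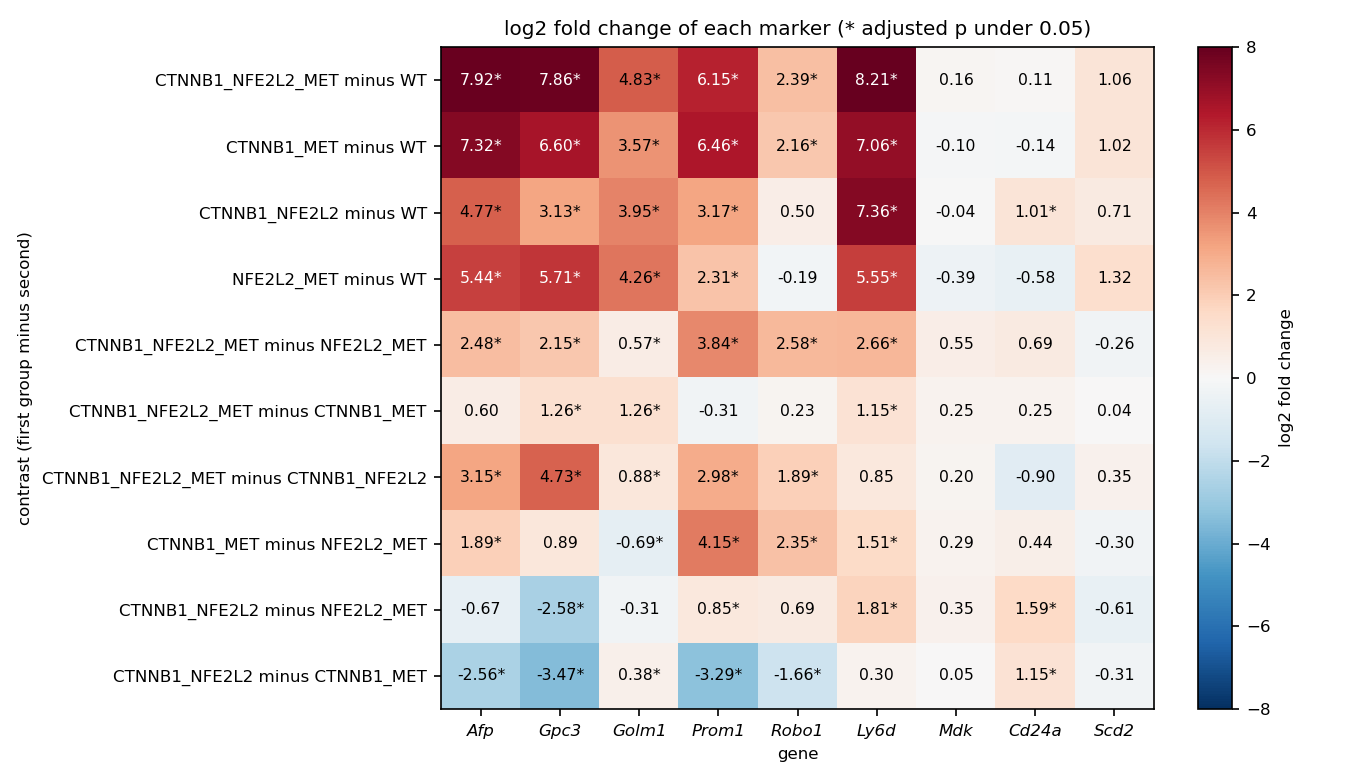
Log2 fold change of the 9 markers (columns) in the 10 contrasts (rows, first group minus second), with stars at an adjusted p under 0.05. The first 4 rows are changes against WT and range up to 8.21 for Ly6d, and the columns of Mdk and Scd2 carry no star.

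Afp (chromosome 5, 90490737 to 90508907, plus strand) rose most where CTNNB1 and MET were combined. WT livers held 2.37, 3.14 and 9.36 CPM, from 33, 53 and 146 counts. CTNNB1_NFE2L2_MET held 1974, 881 and 763 CPM, and CTNNB1_MET held 926, 800 and 669. The other pair was intermediate, with 300, 132 and 214 CPM in NFE2L2_MET and 148, 138 and 120 in CTNNB1_NFE2L2. Every model library was above every WT library, WT replicate 3 was the highest of its group, and replicate 1 of CTNNB1_NFE2L2_MET stood above the other 2 of its group. The changes against WT were 7.92 ± 0.62, 7.32 ± 0.60, 5.44 ± 0.56 and 4.77 ± 0.55 in CTNNB1_NFE2L2_MET, CTNNB1_MET, NFE2L2_MET and CTNNB1_NFE2L2, with adjusted p of at most 2.77e-05. Without WT replicate 3 they were 8.76, 8.16, 6.28 and 5.61.

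In order of level, CTNNB1_NFE2L2_MET (1206 ± 668 CPM, SD, n = 3) and CTNNB1_MET (798 ± 129) did not differ beyond their spread in Afp (0.60 ± 0.45, adjusted p = 0.336), nor did NFE2L2_MET (216 ± 84) and CTNNB1_NFE2L2 (136 ± 14.5, difference -0.67 ± 0.45, adjusted p = 0.271). Afp was higher in CTNNB1_MET than in NFE2L2_MET (1.89 ± 0.46, adjusted p = 0.0166). That call was lost without NFE2L2_MET replicate 2 (1.63, adjusted p = 0.065) or replicate 3 (1.88, adjusted p = 0.0566). Adding MET to CTNNB1_NFE2L2, read as CTNNB1_NFE2L2_MET minus CTNNB1_NFE2L2, raised Afp by 3.15 ± 0.49 (adjusted p = 0.000776). Adding CTNNB1 to NFE2L2_MET raised it by 2.48 ± 0.47 (adjusted p = 0.00183).

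Golm1 (chromosome 13, 59634626 to 59675811, minus strand) was the steadiest of the serum markers across replicates. WT held 3.38, 2.67 and 2.95 CPM, and CTNNB1_NFE2L2_MET held 80.6, 90.7 and 83.6. The double models lay between, with 61, 46.4 and 64.3 CPM in NFE2L2_MET, 41.9, 49.1 and 47.4 in CTNNB1_NFE2L2, and 39.5, 34.6 and 32.3 in CTNNB1_MET. No model library overlapped WT, and no double model reached CTNNB1_NFE2L2_MET. Changes against WT were 4.83, 4.26, 3.95 and 3.57 in CTNNB1_NFE2L2_MET, NFE2L2_MET, CTNNB1_NFE2L2 and CTNNB1_MET, each ± 0.15. Adding NFE2L2 to CTNNB1_MET raised Golm1 by 1.26 ± 0.12 (adjusted p = 3.08e-06), adding MET by 0.88 ± 0.12 (adjusted p = 0.000174) and adding CTNNB1 by 0.57 ± 0.12 (adjusted p = 0.00234). CTNNB1_MET was below NFE2L2_MET (-0.69 ± 0.12, adjusted p = 0.00122), the reverse of the order for Afp. The smaller step from CTNNB1_MET to CTNNB1_NFE2L2 (0.38 ± 0.12, adjusted p = 0.025) lost its call in 6 settings, with the term for the libraries marked as added (0.35, adjusted p = 0.0509), without those libraries (0.32, adjusted p = 0.114), and without replicate 2 or 3 of either group (0.32 to 0.36, adjusted p = 0.0665 to 0.0966). NFE2L2_MET and CTNNB1_NFE2L2 did not differ (-0.31 ± 0.12, adjusted p = 0.0554, and -0.44 with an adjusted p of 0.0084 without NFE2L2_MET replicate 2). The gene overlaps Naa35 on the other strand, and the counts do not separate strands. Naa35 was called by edgeR in 0 of the 10 contrasts, with 2 at an unadjusted p under 0.05 and 0 called by DESeq2.

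Mdk (chromosome 2, 91929805 to 91932297, minus strand), proposed as a serum marker, was close to the detection limit. Its 15 libraries held 4 to 17 counts each, 161 in all. Group means ran from 0.479 ± 0.128 CPM in NFE2L2_MET to 0.709 ± 0.168 in CTNNB1_NFE2L2_MET, with WT at 0.643 ± 0.413. The groups overlapped, and Mdk was called by edgeR in 0 of 10 contrasts, with 0 at an unadjusted p under 0.05 and 0 called by DESeq2. Its differences had standard errors of 0.48 to 0.52 on the log2 scale.

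Gpc3 (chromosome X, 52272426 to 52613950, minus strand) followed Afp but separated the CTNNB1_NFE2L2 livers from the rest. WT held 0.935, 1.19 and 3.34 CPM, from 13, 20 and 52 counts. CTNNB1_NFE2L2_MET held 665, 356 and 262 CPM, and CTNNB1_MET held 220, 178 and 137. NFE2L2_MET held 117.86, 62.02 and 109.00 CPM, whereas CTNNB1_NFE2L2 held 19.9, 14.8 and 13.6. No library of CTNNB1_NFE2L2 reached a library of a group with MET. Changes against WT were 7.86 ± 0.55, 6.60 ± 0.53, 5.71 ± 0.52 and 3.13 ± 0.50 in CTNNB1_NFE2L2_MET, CTNNB1_MET, NFE2L2_MET and CTNNB1_NFE2L2, with adjusted p of at most 0.000291, and 8.63, 7.37, 6.48 and 3.90 without WT replicate 3.

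The step from CTNNB1_NFE2L2 to CTNNB1_NFE2L2_MET was 4.73 ± 0.45 for Gpc3 (adjusted p = 3.2e-05), a 26.6-fold difference. CTNNB1_NFE2L2 was also below NFE2L2_MET (-2.58 ± 0.41, adjusted p = 0.000418), although Afp was not called there. Adding CTNNB1 to NFE2L2_MET raised Gpc3 by 2.15 ± 0.40 (adjusted p = 0.00155). Adding NFE2L2 to CTNNB1_MET raised it by 1.26 ± 0.39 (adjusted p = 0.0239), but the call was lost without CTNNB1_NFE2L2_MET replicate 1 (0.80, adjusted p = 0.122), CTNNB1_MET replicate 2 (1.26, adjusted p = 0.0697) or CTNNB1_MET replicate 3 (1.11, adjusted p = 0.0903). CTNNB1_MET and NFE2L2_MET were not separated (0.89 ± 0.38, adjusted p = 0.153).

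Prom1 (chromosome 5, 43993620 to 44102032, minus strand) was near its floor in WT and highest in the groups with both CTNNB1 and MET. WT held 8, 10 and 9 counts, or 0.575, 0.593 and 0.577 CPM. CTNNB1_MET held 52.7, 52.8 and 50.3 CPM, and CTNNB1_NFE2L2_MET held 39.5, 43.6 and 42.4. The remaining models held 7.54, 4.34 and 3.89 CPM (CTNNB1_NFE2L2) and 3.65, 1.4 and 3.61 CPM (NFE2L2_MET). These groups fall into 2 levels that do not overlap, both above WT. Changes against WT were 6.46 ± 0.33 and 6.15 ± 0.33 in CTNNB1_MET and CTNNB1_NFE2L2_MET, against 3.17 ± 0.37 and 2.31 ± 0.40 in CTNNB1_NFE2L2 and NFE2L2_MET. Adding CTNNB1 to NFE2L2_MET raised Prom1 by 3.84 ± 0.26 (adjusted p = 2.46e-07), and adding MET to CTNNB1_NFE2L2 raised it by 2.98 ± 0.24 (adjusted p = 3.47e-06). Adding NFE2L2 to CTNNB1_MET gave -0.31 ± 0.22 (adjusted p = 0.288). With only the libraries of that contrast in the fit it was called lower (-0.31 ± 0.09, adjusted p = 0.0243). The step from NFE2L2_MET to CTNNB1_NFE2L2 (0.85 ± 0.28, adjusted p = 0.0256) was lost without CTNNB1_NFE2L2 replicate 1 (0.50, adjusted p = 0.148), without NFE2L2_MET replicate 2 (0.54, adjusted p = 0.0782), without the libraries marked as added (0.85, adjusted p = 0.057) and with only the libraries of the contrast (0.86, adjusted p = 0.117).

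Robo1 (chromosome 16, 72308306 to 73046095, plus strand) rose only in the same pair of groups, and by less. WT held 1.73, 1.96 and 2.63 CPM. CTNNB1_NFE2L2_MET held 15.7, 9.52 and 8.17 CPM, and CTNNB1_MET held 11.1, 8.15 and 9.08. In CTNNB1_NFE2L2 the values were 3.14, 3.19 and 2.61 CPM, and in NFE2L2_MET 2.36, 1.46 and 1.72, both overlapping WT. Robo1 changed by 2.39 ± 0.26 and 2.16 ± 0.26 in CTNNB1_NFE2L2_MET and CTNNB1_MET (adjusted p = 3.01e-06 and 4.93e-05), and by 0.50 ± 0.28 and -0.19 ± 0.29 in CTNNB1_NFE2L2 and NFE2L2_MET (adjusted p = 0.15 and 0.685). The difference itself was called, with CTNNB1_NFE2L2_MET above NFE2L2_MET by 2.58 ± 0.27 and above CTNNB1_NFE2L2 by 1.89 ± 0.25 (adjusted p = 4.56e-06 and 0.000116). CTNNB1_NFE2L2_MET and CTNNB1_MET did not differ beyond their spread (0.23 ± 0.23, adjusted p = 0.469). CTNNB1_NFE2L2 against NFE2L2_MET gave 0.69 ± 0.28 (adjusted p = 0.0653), which total-count scaling called (0.99, adjusted p = 0.0107).

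Ly6d (chromosome 15, 74762056 to 74763620, minus strand) rose in all 4 models, and in CTNNB1_NFE2L2 its change was the largest among the 9 members. In CTNNB1_NFE2L2_MET it lay within 1 standard error of Afp and Gpc3, and without WT replicate 3 the values were 8.71 for Ly6d, 8.76 for Afp and 8.63 for Gpc3. WT held 9, 13 and 25 counts, or 0.647, 0.771 and 1.6 CPM. CTNNB1_NFE2L2_MET held 386, 233 and 289 CPM, and CTNNB1_NFE2L2 held 212, 157 and 133. CTNNB1_MET held 205.60, 110.97 and 92.83 CPM, and NFE2L2_MET held 55.3, 47.2 and 41. Each library of the 3 groups with CTNNB1 exceeded all NFE2L2_MET libraries, which in turn exceeded WT. Changes against WT were 8.21 ± 0.45, 7.36 ± 0.44, 7.06 ± 0.43 and 5.55 ± 0.43 in CTNNB1_NFE2L2_MET, CTNNB1_NFE2L2, CTNNB1_MET and NFE2L2_MET. Adding CTNNB1 to NFE2L2_MET raised Ly6d by 2.66 ± 0.31 (adjusted p = 4.63e-05), and adding NFE2L2 to CTNNB1_MET raised it by 1.15 ± 0.30 (adjusted p = 0.00957). Adding MET to CTNNB1_NFE2L2 gave 0.85 ± 0.30, just short of the threshold (adjusted p = 0.0509), and it was called by DESeq2 (0.83, adjusted p = 0.0188). Ly6d is best known from B cell precursors. B cell markers were low but moved with it in part. Of 5 tested, Cd79b, Cd22 and Ms4a1 rose in CTNNB1_NFE2L2_MET (1.75 ± 0.36, 1.70 ± 0.44 and 1.85 ± 0.58), Cd79b and Ms4a1 in CTNNB1_MET, Cd79b and Cd22 in CTNNB1_NFE2L2, and none in NFE2L2_MET. Without WT replicate 3 the Ms4a1 call in CTNNB1_NFE2L2_MET, both calls in CTNNB1_MET and the Cd22 call in CTNNB1_NFE2L2 were lost. Ms4a1, Blk and Pax5 were under 1 CPM in all 15 libraries. The 7 markers summed to between 5.91 and 9.63 CPM in CTNNB1_NFE2L2_MET and between 1.99 and 3.68 CPM in WT. The sums were 4.68 to 6.32 CPM in CTNNB1_MET, 5.17 to 5.85 in CTNNB1_NFE2L2 and 2.71 to 3.53 in NFE2L2_MET. The part of B cells in the Ly6d changes was not tested.

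Cd24a (chromosome 10, 43578284 to 43584265, plus strand) was called higher against WT in CTNNB1_NFE2L2 alone. WT held 6.62, 6.94 and 3.21 CPM, and CTNNB1_NFE2L2 held 14.4, 12.2 and 7.11. CTNNB1_NFE2L2_MET held 9.16, 4.28 and 4.67 CPM, CTNNB1_MET 5.46, 5.88 and 3.97, and NFE2L2_MET 3.59, 3.59 and 4.01. CTNNB1_NFE2L2 did not overlap WT, CTNNB1_MET or NFE2L2_MET, although its lowest library was close to the highest WT library. Against WT, Cd24a rose by 1.01 ± 0.33 in CTNNB1_NFE2L2 (adjusted p = 0.0216). The call was lost without WT replicate 3 (0.73, adjusted p = 0.0838), without all libraries marked as added (0.73, adjusted p = 0.0847), and without CTNNB1_NFE2L2 replicate 1 (0.79, adjusted p = 0.0911) or replicate 2 (0.95, adjusted p = 0.0612). CTNNB1_NFE2L2 exceeded NFE2L2_MET by 1.59 ± 0.34 (adjusted p = 0.00228), a call kept under all 23 alternatives, and CTNNB1_MET by 1.15 ± 0.34 (adjusted p = 0.0156), a call lost without CTNNB1_MET replicate 3 (0.99, adjusted p = 0.0666) or CTNNB1_NFE2L2 replicate 1 (0.93, adjusted p = 0.067). Against CTNNB1_NFE2L2_MET the difference was -0.90 ± 0.33 (adjusted p = 0.0571), and DESeq2 called it (-0.93, adjusted p = 0.0278).

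Markers of red blood cell precursors, which carry CD24, were also measured. Slc4a1, the red cell anion exchanger, rose by 6.01 ± 0.58 in CTNNB1_NFE2L2 against WT (adjusted p = 1.49e-06). It stood at 17 ± 6.39 CPM there and 0.251 ± 0.161 CPM in WT. Of 8 listed erythroid markers 7 are in the files. Hba-a1, Hba-a2, Hbb-bs and Hbb-bt were under 1 CPM in every library, and these globin genes have near-identical copies. Summed erythroid markers ranged from 33.1 to 55.3 CPM in CTNNB1_NFE2L2, 18.7 to 27.6 in WT, 9.95 to 15.4 in CTNNB1_NFE2L2_MET, 31.2 to 37 in CTNNB1_MET and 14.4 to 15.2 in NFE2L2_MET. Their part in the Cd24a difference was not tested.

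Scd2 (chromosome 19, 44293674 to 44306864, plus strand) was the most abundant member per kilobase of exon in WT, at 4.17 CPM per kilobase. WT held 24.4, 27.9 and 16 CPM, and NFE2L2_MET held 69.7, 24.3 and 76.6. CTNNB1_NFE2L2_MET held 62.3, 35.3 and 45.4 CPM, CTNNB1_MET 52.5, 37.1 and 49.2, and CTNNB1_NFE2L2 43.2, 49.5 and 19. CTNNB1_NFE2L2_MET and CTNNB1_MET lay above WT without overlap, while replicate 2 of NFE2L2_MET and replicate 3 of CTNNB1_NFE2L2 lay within its range. The estimates against WT were 1.32 ± 0.44, 1.06 ± 0.44, 1.02 ± 0.44 and 0.71 ± 0.44 in NFE2L2_MET, CTNNB1_NFE2L2_MET, CTNNB1_MET and CTNNB1_NFE2L2. Scd2 was called by edgeR in 0 of the 10 contrasts, with 3 at an unadjusted p under 0.05 and 2 called by DESeq2, and the closest was NFE2L2_MET (adjusted p = 0.0503). Without NFE2L2_MET replicate 2 that comparison was called (1.68, adjusted p = 0.00876), and DESeq2 called it on all libraries (1.30, adjusted p = 0.0209). DESeq2 also called CTNNB1_NFE2L2_MET against WT (1.05, adjusted p = 0.0427). So did edgeR with total-count scaling (1.29, adjusted p = 0.0378) and with only the libraries of the contrast (1.07 ± 0.26, adjusted p = 0.0143). Leaving out CTNNB1_NFE2L2 replicate 3 or NFE2L2_MET replicate 2 gave that call too (adjusted p = 0.038 and 0.0209). With only its own libraries in the fit, CTNNB1_MET against WT was called as well (1.02 ± 0.21, adjusted p = 0.0179).

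Per kilobase of exon, the ranking of the markers changed from group to group. WT was led by Scd2 (4.17 CPM per kilobase), Cd24a (2.17) and Afp (1.47). Ly6d led CTNNB1_NFE2L2_MET at 407 CPM per kilobase, followed by Afp at 358 and Gpc3 at 159, and Afp led CTNNB1_MET at 237, with Ly6d at 183. In CTNNB1_NFE2L2, Ly6d (225) stood well above Afp (40.2) and Golm1 (10.4), and Gpc3 stood at 5.97, below Scd2 at 6.82. Ly6d (64.3) and Afp (64.1) were level in NFE2L2_MET.

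Across the 15 libraries Afp and Gpc3 had the most similar log2 CPM of any pair of members (Pearson r = 0.97). Golm1 and Ly6d had r = 0.94 and Prom1 and Robo1 had r = 0.91, whereas Cd24a reached at most 0.54, with Mdk. Libraries of a group share their transgenes and WT is low in most members, so these values are given as a description with no p. Of tested genes whose mean log2 CPM was 1 or more, those most like Afp were Cyp4f16, Gpc3 and Dbndd2 (r = 0.97, 0.97 and 0.97), and those most like Gpc3 were Itm2c, Afp and Cxcl9 (r = 0.97, 0.97 and 0.97). The nearest to Golm1 were Prss8, Ccdc120 and Lysmd2, the nearest to Ly6d were Dbndd2, Lysmd2 and Cyp4f16, the nearest to Prom1 were Gbp9, Bmp8b and Galnt6, and the nearest to Robo1 were Mfsd7c, Galnt18 and Dcbld2. Gpx3, Nr4a1 and Wisp2 were nearest to Cd24a (r = 0.90, 0.90 and 0.89). Wisp2 stood at 44.5 ± 5.76 CPM in CTNNB1_NFE2L2 and 8.53 ± 5.05 in WT. For Scd2 (Ifi35, Rhoc and Cmss1) and Mdk (Mical1, Gmeb1 and Cnn2) the best r were 0.80 and 0.77.

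**Figure D3:**
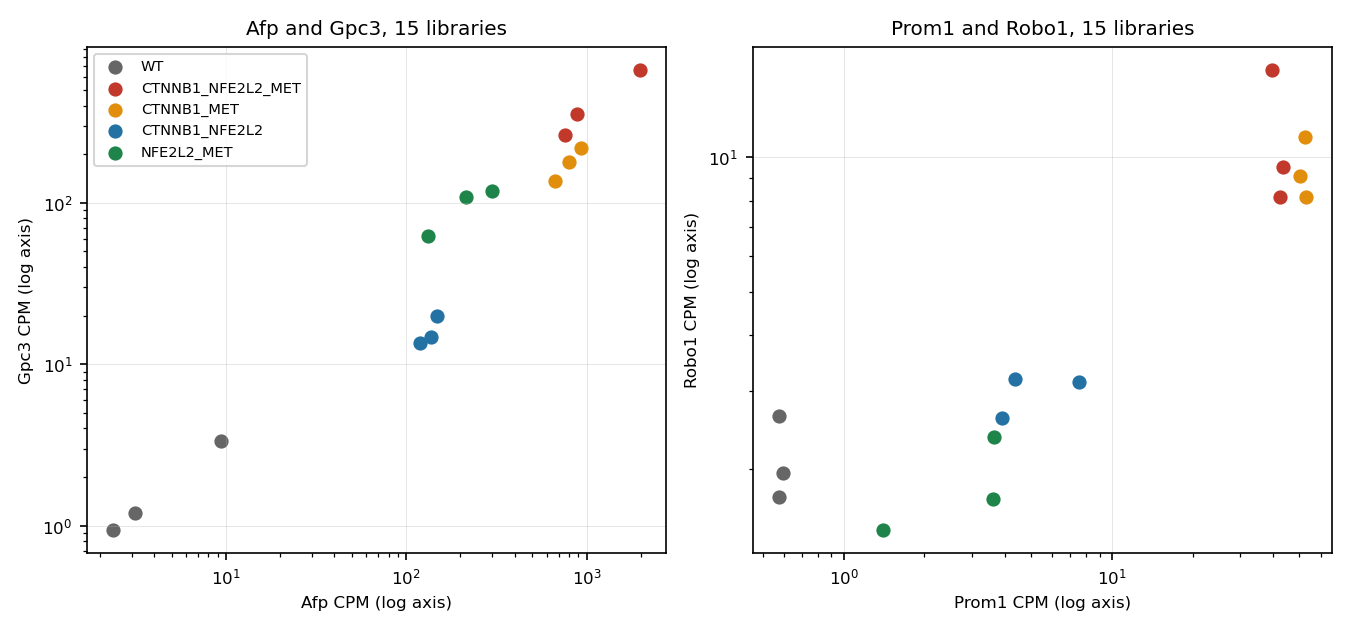
CPM of Afp against Gpc3 (left) and Prom1 against Robo1 (right) on log axes, 1 dot per library, coloured by group. On the left CTNNB1_NFE2L2 lies below the other models, with Gpc3 at 13.6 to 19.9 CPM, and on the right the 6 libraries with CTNNB1 and MET form a cluster apart from the other 9.

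Within groups some libraries were high or low in many members at once. CTNNB1_NFE2L2_MET replicate 1 was the highest of its group in 7 of 9 members, CTNNB1_NFE2L2 replicate 3 was the lowest in 8 and NFE2L2_MET replicate 2 the lowest in 8. WT replicate 3 was the highest WT library in Afp, Gpc3, Robo1 and Ly6d. NFE2L2_MET replicate 2 held 28.5 CPM of summed neutrophil markers, against 11.3 and 8.25 in the other libraries of its group. Whether the cell makeup of these samples moved the members was not tested.

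Close relatives of the markers moved in both directions. Of 18 tested relatives, 7 rose and 3 fell in CTNNB1_NFE2L2_MET against WT, with a median change of -0.06. In CTNNB1_MET 7 rose and none fell, in CTNNB1_NFE2L2 4 rose and 6 fell, and in NFE2L2_MET 7 rose and 1 fell. Under total-count scaling the balance in CTNNB1_NFE2L2 turned to 6 that rose and 3 that fell, and CTNNB1_NFE2L2_MET had 8 and 1. Of all tested genes, 26.5% rose and 23.4% fell in CTNNB1_NFE2L2_MET, 11.0% and 6.22% in CTNNB1_MET, 24.5% and 24.2% in CTNNB1_NFE2L2, and 13.5% and 9.89% in NFE2L2_MET. Alb, the adult counterpart of Afp, stood at 50866 ± 10972 CPM in WT. It rose in NFE2L2_MET (1.28 ± 0.20) and CTNNB1_MET (0.94 ± 0.20), fell in CTNNB1_NFE2L2 (-1.59 ± 0.21), and gave 0.02 ± 0.20 in CTNNB1_NFE2L2_MET (adjusted p = 0.95). Per kilobase, Afp amounted to 0.00628% ± 0.00348 of Alb in WT, 0.128% ± 0.0707 in NFE2L2_MET, 0.57% ± 0.0984 in CTNNB1_MET, 0.574% ± 0.135 in CTNNB1_NFE2L2 and 1.6% ± 0.785 in CTNNB1_NFE2L2_MET (SD, n = 3). On that scale CTNNB1_NFE2L2 was level with CTNNB1_MET, although its Afp was 5.89-fold lower. Afm, the neighbouring afamin gene of the albumin family, rose in CTNNB1_MET (1.29 ± 0.13), NFE2L2_MET (0.74 ± 0.13) and CTNNB1_NFE2L2_MET (0.64 ± 0.13). In CTNNB1_NFE2L2 it fell (-0.46 ± 0.13), a call lost under total-count scaling.

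Gpc3 supplied most glypican transcripts in the groups with MET. It made up 3.2% ± 2.62 of all glypican transcripts per kilobase in WT, 88.6% ± 2.98 in CTNNB1_NFE2L2_MET, 73.8% ± 7.28 in CTNNB1_MET, 63.5% ± 11.3 in NFE2L2_MET and 30.6% ± 1.59 in CTNNB1_NFE2L2 (SD, n = 3). Gpc4, the main glypican of WT liver at 52.4 ± 6.63 CPM, fell in CTNNB1_NFE2L2 (-0.77 ± 0.14, adjusted p = 0.000424) and in CTNNB1_NFE2L2_MET (-0.45 ± 0.14, adjusted p = 0.0152, not called under total-count scaling). Gpc1 rose in CTNNB1_NFE2L2_MET (1.81 ± 0.34) and was not called in the double models.

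Among the other families, Ly6e, the most abundant Ly6 gene of WT liver among those listed, rose in CTNNB1_MET (1.27 ± 0.24), CTNNB1_NFE2L2_MET (1.23 ± 0.24) and NFE2L2_MET (1.13 ± 0.24). Per kilobase Ly6d was 3.35% of Ly6e in WT, 381% in CTNNB1_NFE2L2_MET, 330% in CTNNB1_NFE2L2, 174% in CTNNB1_MET and 65.5% in NFE2L2_MET. Ly6a (Sca-1) was highest in CTNNB1_NFE2L2 (69.1 ± 3.02 CPM, 8.7 ± 0.769 in WT, change 2.99 ± 0.13). Robo4, the endothelial Robo receptor, rose in CTNNB1_NFE2L2 (0.95 ± 0.21), where Robo1 did not pass. Robo1 made up 8.39% ± 1.61 of Robo1, Robo2 and Robo4 per kilobase in WT, 28.4% ± 5.49 in CTNNB1_NFE2L2_MET and 22.5% ± 4.7 in CTNNB1_MET. Scd1, the adult liver desaturase, passed against WT in no model. Scd2 amounted to 1.89% ± 1.3 of Scd1 per kilobase in WT and 8.04% ± 4.68 in CTNNB1_NFE2L2_MET, where each library (4.1 to 13.2%) was above each WT library (1 to 3.39%). The same held in NFE2L2_MET (4.18 to 8.87%, mean 6.39% ± 2.36). Casc4, the paralogue of Golm1, rose in CTNNB1_MET (2.36 ± 0.31) and CTNNB1_NFE2L2_MET (1.80 ± 0.31). Prom2, the paralogue of Prom1, was called in CTNNB1_MET (3.70 ± 0.74) at only 1.22 ± 0.55 CPM, and Ptn, the relative of Mdk, fell in CTNNB1_NFE2L2_MET (-1.97 ± 0.67, adjusted p = 0.0238) and NFE2L2_MET (-1.98 ± 0.68, adjusted p = 0.0493).

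**Figure D4:**
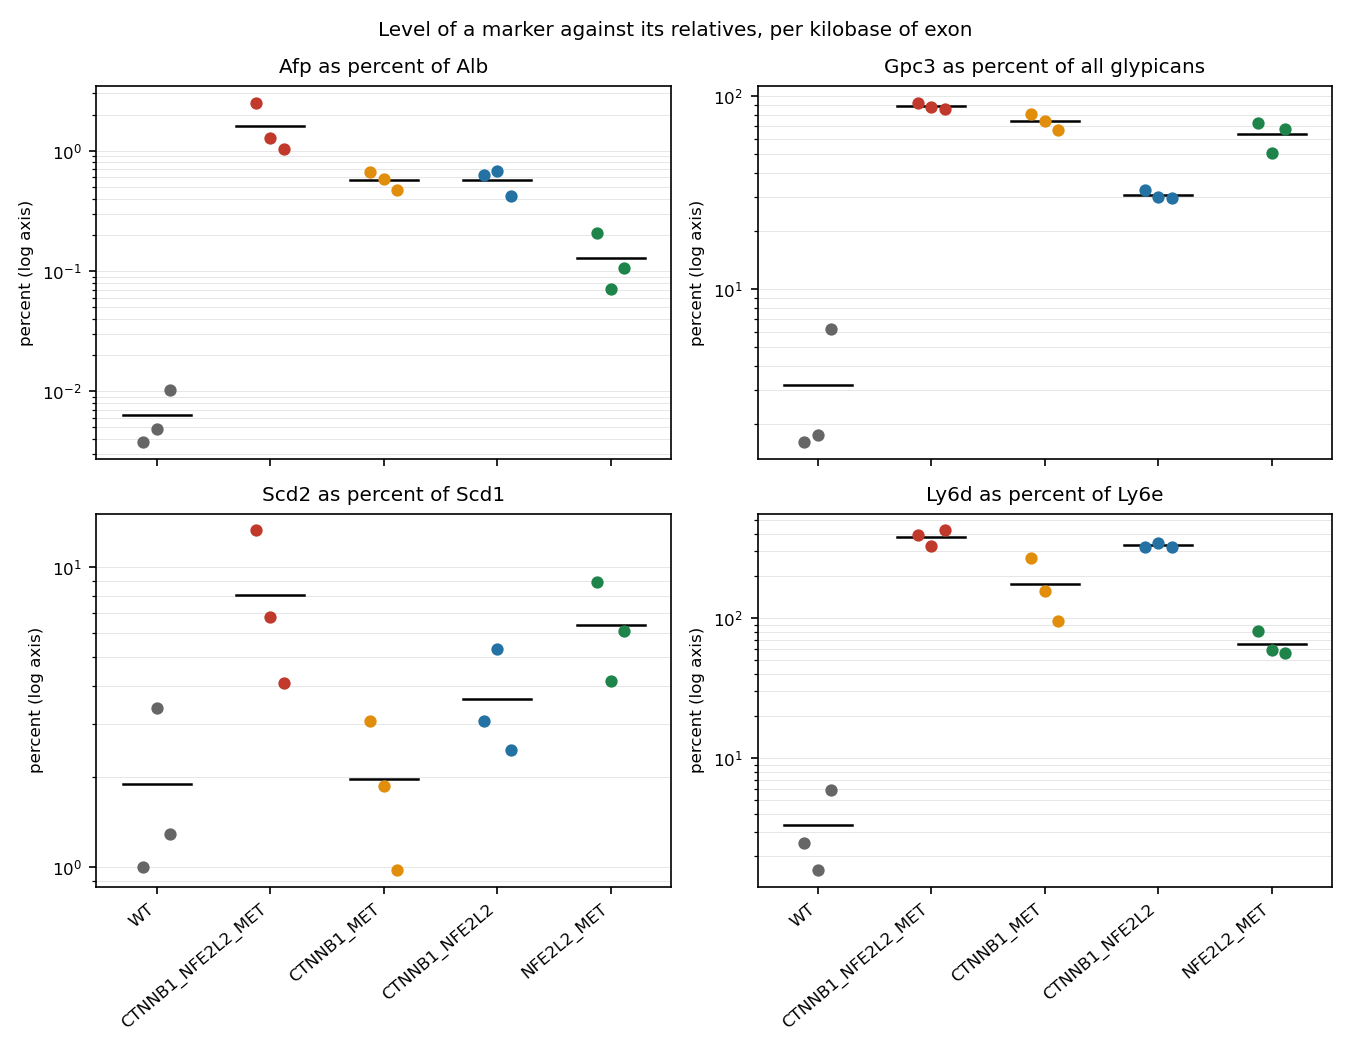
Level of 4 markers relative to relatives, per kilobase of exon, in percent on log axes, with 1 dot per library and a line at the mean of 3. Gpc3 makes up 86 to 91.9% of glypican transcripts in CTNNB1_NFE2L2_MET, and Scd2 relative to Scd1 spreads widely within groups.

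Partners of the markers were tested as a list of ligands, receptors and associated proteins, with 22 tested. In CTNNB1_NFE2L2_MET against WT 7 rose and 8 fell (median -0.20), in CTNNB1_NFE2L2 5 rose and 8 fell, in NFE2L2_MET 2 rose and 3 fell, and in CTNNB1_MET none rose and 2 fell. Total-count scaling turned the balance to 8 that rose and 6 that fell in CTNNB1_NFE2L2_MET and to 7 and 5 in CTNNB1_NFE2L2, and gave 2 and 7 in NFE2L2_MET. The shares of all genes called in these contrasts are those given for the relatives. Slit2, a ligand of Robo1, was low everywhere, at 1.63 ± 0.517 CPM in WT and 0.454 ± 0.285 in CTNNB1_NFE2L2_MET, where it fell (-1.81 ± 0.49, adjusted p = 0.00646). Srgap3, which acts downstream of Robo receptors, fell in all 4 models, with changes of -2.12 in NFE2L2_MET, -2.05 in CTNNB1_NFE2L2_MET, -1.67 in CTNNB1_NFE2L2 and -1.38 in CTNNB1_MET. Without WT replicate 3 the call in CTNNB1_MET was lost (-0.91, adjusted p = 0.132), and none of the 22 was called in that model. Of the receptors proposed for midkine, Itga6, an integrin subunit, rose in CTNNB1_NFE2L2_MET from 1.65 ± 0.459 to 16.4 ± 1.14 CPM (3.29 ± 0.26), and Lrp1 fell there (-1.36 ± 0.22). The syndecans Sdc1 (-1.04 ± 0.15) and Sdc4 (-1.27 ± 0.18), other surface proteoglycans, fell in the same contrast. Cd81, a tetraspanin that binds glypican-3, rose in CTNNB1_NFE2L2_MET (1.18 ± 0.11), NFE2L2_MET (1.10 ± 0.11) and CTNNB1_NFE2L2 (0.69 ± 0.11).

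Of 17 tested factors known to act on Afp and its neighbours in liver, 6 fell and none rose in CTNNB1_NFE2L2_MET against WT, 8 fell and none rose in CTNNB1_NFE2L2, 3 fell and none rose in NFE2L2_MET, and 1 rose and none fell in CTNNB1_MET. Of all tested genes, 23.4%, 24.2%, 9.89% and 6.22% fell in these groups in the same order, and 26.5%, 24.5%, 13.5% and 11.0% rose. Total-count scaling left 4 of the 6 and 4 of the 8 calls among the 17 factors. Without WT replicate 3, 4 of the 8 were kept in CTNNB1_NFE2L2, where 5 fell in all, as Gata6, Nr5a2, Zhx1 and Zhx3 were lost, and in CTNNB1_MET none rose and 1 fell. Zbtb20, a repressor of Afp after birth, fell in CTNNB1_NFE2L2_MET (-1.12 ± 0.31, adjusted p = 0.00905) and NFE2L2_MET (-1.17 ± 0.32, adjusted p = 0.0175), and gave -0.78 ± 0.31 in CTNNB1_MET (adjusted p = 0.101) and -0.41 ± 0.30 in CTNNB1_NFE2L2 (adjusted p = 0.291). Without WT replicate 3, Zbtb20 was also called lower in CTNNB1_MET (-1.09, adjusted p = 0.00816) and in CTNNB1_NFE2L2 (-0.72, adjusted p = 0.0249). Zhx2, a further repressor of Afp and Gpc3, was the gene that rose in CTNNB1_MET (0.43 ± 0.12, adjusted p = 0.0229), a call lost without WT replicate 3 (0.38, adjusted p = 0.0725). Cebpa, a hepatocyte factor, fell in CTNNB1_NFE2L2_MET (-1.09 ± 0.19), CTNNB1_NFE2L2 (-1.05 ± 0.19) and NFE2L2_MET (-0.63 ± 0.19), and gave -0.12 ± 0.19 in CTNNB1_MET. Hnf4a fell in CTNNB1_NFE2L2_MET (-0.73 ± 0.15) and CTNNB1_NFE2L2 (-0.58 ± 0.15). Between CTNNB1_MET and NFE2L2_MET, which differ in Afp, edgeR called 0 of the 17, with 5 at an unadjusted p under 0.05 and 1 called by DESeq2. Of all tested genes, 6.96% were higher and 7.36% lower in that contrast.

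Other tumour markers of liver differed in which models they rose in. Of 25 tested, 12 rose and 4 fell in CTNNB1_NFE2L2_MET against WT, 13 rose and 1 fell in CTNNB1_MET, 10 rose and 4 fell in CTNNB1_NFE2L2, and 4 rose and 2 fell in NFE2L2_MET, with medians of 1.35, 1.01, 0.04 and 0.02. Of all tested genes, 26.5%, 11.0%, 24.5% and 13.5% rose in these groups in the same order, and 23.4%, 6.22%, 24.2% and 9.89% fell. Under total-count scaling 4 of the 25 rose and 5 fell in NFE2L2_MET. Cdh17, an intestinal cadherin seen in liver cancers, was like Prom1 in being highest with CTNNB1 and MET, at 218 ± 32.1 CPM in CTNNB1_NFE2L2_MET and 59.1 ± 22.8 in CTNNB1_MET, against 2.3 ± 0.498, 2.34 ± 0.545 and 0.298 ± 0.465 in CTNNB1_NFE2L2, NFE2L2_MET and WT. Akr1c18 (80.2 to 135 CPM) and Dlk1, a fetal liver surface protein (59.6 ± 25.3 CPM), were highest in CTNNB1_MET, and in CTNNB1_NFE2L2_MET they were lower by 4.34 ± 0.35 and 4.17 ± 0.38 on the log2 scale. Epcam, the epithelial adhesion molecule of bile duct and progenitor cells, went with NFE2L2, at 37.8 ± 6.86 CPM in NFE2L2_MET, 27.2 ± 2.96 in CTNNB1_NFE2L2_MET and 20.3 ± 6.51 in CTNNB1_NFE2L2, against 1.6 ± 0.668 in CTNNB1_MET and 0.779 ± 0.33 in WT. Glul, the glutamine synthetase of cells with active β-catenin, rose in the 3 groups with CTNNB1 and fell in NFE2L2_MET (-0.86 ± 0.15), while Afp, Gpc3, Golm1, Prom1 and Ly6d rose in all 4.

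Lipogenic neighbours of Scd2 moved in both directions. Of 16 tested, 1 rose and 9 fell in CTNNB1_NFE2L2_MET against WT, 2 rose and 7 fell in CTNNB1_NFE2L2, 2 rose and 3 fell in NFE2L2_MET, and 2 rose and none fell in CTNNB1_MET. Without WT replicate 3 the numbers that fell were 10, 9, 7 and 3 in the same order, and those that rose were 1, 2, 2 and 2. The shares of all genes that fell were 23.4%, 24.2%, 9.89% and 6.22%, again in that order. Srebf1, a master factor of fatty acid synthesis, fell in CTNNB1_NFE2L2 (-2.03 ± 0.22) and CTNNB1_NFE2L2_MET (-1.43 ± 0.22), and Fads2, another desaturase, fell in CTNNB1_NFE2L2_MET (-1.99 ± 0.24) and CTNNB1_NFE2L2 (-1.58 ± 0.23). Elovl7, a fatty acid elongase, rose in all 4 models, from 0.429 ± 0.0778 CPM in WT to 66.3 ± 7.26 in CTNNB1_NFE2L2_MET and 54.4 ± 5.09 in CTNNB1_NFE2L2.

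Cholangiocytes express Prom1 in adult liver. Their 10 markers summed to 75.6 to 169 CPM in WT, 52.2 to 78 in CTNNB1_NFE2L2, 73.7 to 80.1 in CTNNB1_MET, 97.7 to 161 in CTNNB1_NFE2L2_MET and 196 to 291 in NFE2L2_MET. Single genes carried much of these sums, with Spp1 at 99 ± 44.3 CPM in WT and Tspan8 at 124 ± 44.5 in NFE2L2_MET. The part of cholangiocytes in the Prom1 changes was not tested. Krt19 passed against WT in no model, and Cldn7 and Cftr were under 1 CPM in every library. Summed macrophage markers were higher in the models, from 205 to 230 CPM in WT to 411 to 621 in CTNNB1_NFE2L2_MET, 427 to 575 in CTNNB1_NFE2L2, 372 to 457 in NFE2L2_MET and 258 to 330 in CTNNB1_MET. Their part in the members' changes was not tested.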

How the data were processed

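Liver RNA from 15 samples in 5 groups of 3 was measured by polyA RNA sequencing. The authors deposited gene counts per library. Trimmomatic, STAR and mm10 are named in the submitters' processing notes. The sources used here give neither their versions nor the annotation release. Per the labels' protocols, RNA was isolated with the RNeasy Mini kit from fresh frozen liver. Each file holds an unstranded column and 2 strand columns. Column 3 held 49.7 to 49.9% of the sum of the strand columns, so the unstranded counts were used, and genes that overlap others, such as Golm1 with Naa35 and Afp, Gpc3 and Prom1 with antisense transcripts, are uncertain. Rows that name no gene (24.5 to 42.4% of each library's counts) were left out of library sizes. Their share was highest in WT, at 35.75 to 42.42%, against 24.53 to 35.24% in the models. Unmapped reads made up 19.83 to 25.93% in WT and 8.691 to 19.14% in the models. What this difference does to the contrasts with WT was not tested. Counts were fitted with edgeR 4.0.16 in R 4.3.3 (TMM, filterByExpr by group, 1 coefficient per group over all 15 libraries, quasi-likelihood F test, Benjamini-Hochberg adjustment over 14098 genes in each of 10 contrasts, threshold 0.05). Standard errors come from the F statistic. Log2 CPM used a prior count of 2. On counts simulated from these libraries for CTNNB1_NFE2L2_MET against WT, over 13913 genes, the test called 66 of 98 genes changed 2-fold, 92 of 100 changed 4-fold and 10 of 13715 unchanged. The simulated means were averages over all 15 libraries, and few genes were changed, up and down alike. In the measured contrast 26.5% of genes were called higher and 23.4% lower, so these figures may not hold for it. Coordinates and exon lengths are from GENCODE M21 (GRCm38, the mm10 assembly).

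The members and lists were chosen with earlier results of these data known. Named genes are all members, up to 4 called genes of a list with the smallest p in a contrast described, defining markers, and the 3 genes most like each member. Other listed genes named in the text were chosen after their values were seen. Of 179 listed genes, 175 are in the files. Alternatives were RLE size factors, total-count scaling, no low-count filter, a single-strand column, DESeq2 1.42.0, fits restricted to a contrast's own libraries, an added-library term (3 libraries carry a mark of addition in their file labels: replicate 3 of WT, CTNNB1_NFE2L2_MET and CTNNB1_MET), the fit without them, and leaving out each library. Replicate numbers follow the order of the samples.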

Additional observations from a re-analysis of the deposited data

Results flagged for a closer look

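Changes against WT differed in sign between 2 models, with the difference between the models called, in 4 cases. Robo1 differed by 2.58 ± 0.27 between CTNNB1_NFE2L2_MET (2.39 against WT) and NFE2L2_MET (-0.19), with an adjusted p of 4.56e-06 from edgeR's quasi-likelihood test. It differed by 2.35 ± 0.27 between CTNNB1_MET (2.16) and NFE2L2_MET (adjusted p = 1.99e-05). The NFE2L2_MET change of Robo1 did not pass the test by itself, and it was 0.01 without WT replicate 3. Cd24a differed by 1.59 ± 0.34 between CTNNB1_NFE2L2 (1.01 against WT) and NFE2L2_MET (-0.58, not called), with an adjusted p of 0.00228. It differed by 1.15 ± 0.34 between CTNNB1_NFE2L2 and CTNNB1_MET (-0.14, not called), with an adjusted p of 0.0156. For all 4, WT is the shared control, and each difference between models compares no WT library. Its standard error and p still come from a fit over all 15 libraries, WT included.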

How the results depend on the processing

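Of 90 results (9 members in 10 contrasts), 52 were called, and 46 of these were called under all 23 alternatives. Calls were lost somewhere in 6 and gained in 9, and each count of members called per contrast stayed within 1.5 times its value. Total-count scaling moved the median of all genes by up to 0.38 (CTNNB1_NFE2L2_MET minus NFE2L2_MET) and turned the sign of 1 of 614 called results of the listed genes and ended 94 of those calls. RLE size factors turned 0 and ended 2. With 3 libraries per group, Mdk at 4 to 17 counts is too shallow to separate groups. No paired analysis was possible because nothing in the sample labels ties a sample of 1 group to a sample of another.

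Signs turned only in results that were not called, 31 times in 15 results. Without the libraries marked as added, Robo1 in NFE2L2_MET minus WT became 0.01, Cd24a in CTNNB1_NFE2L2_MET minus WT -0.02, Mdk in the same contrast -0.06, and Mdk in CTNNB1_NFE2L2 minus CTNNB1_MET -0.04, which was -0.20 with a term for those libraries. Total-count scaling gave 0.14 for Mdk in CTNNB1_NFE2L2 minus WT and 0.09 for Scd2 in CTNNB1_NFE2L2_MET minus NFE2L2_MET. Leaving out 1 library at a time gave these ranges. Robo1 ran from -0.40 to 0.01 in NFE2L2_MET minus WT and from -0.09 to 0.41 in CTNNB1_NFE2L2_MET minus CTNNB1_MET. Mdk ran against WT from -0.22 to 0.71 in CTNNB1_NFE2L2_MET, -0.47 to 0.46 in CTNNB1_MET, -0.42 to 0.52 in CTNNB1_NFE2L2 and -0.77 to 0.17 in NFE2L2_MET. It ran from -0.08 to 0.47 in CTNNB1_NFE2L2_MET minus CTNNB1_NFE2L2, -0.01 to 0.48 in CTNNB1_MET minus NFE2L2_MET and -0.22 to 0.36 in CTNNB1_NFE2L2 minus CTNNB1_MET. Cd24a ran from -0.32 to 0.31 in CTNNB1_NFE2L2_MET minus WT, -0.42 to 0.05 in CTNNB1_MET minus WT and -0.18 to 0.44 in CTNNB1_NFE2L2_MET minus CTNNB1_MET. Scd2 ran from -0.62 to 0.02 in CTNNB1_NFE2L2_MET minus NFE2L2_MET, -0.20 to 0.22 in CTNNB1_NFE2L2_MET minus CTNNB1_MET and -0.57 to 0.00 in CTNNB1_NFE2L2 minus CTNNB1_MET. The causes were not tested.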

Other observations

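Reln, a secreted matrix protein counted here among stellate cell markers, was the only gene of that list called higher against WT in a group with MET. The groups with MET held 307 ± 48.5 CPM (CTNNB1_NFE2L2_MET), 271 ± 50.9 (CTNNB1_MET) and 168 ± 27 (NFE2L2_MET), against 37.6 ± 10.8 in WT and 34.7 ± 7.43 in CTNNB1_NFE2L2. In CTNNB1_NFE2L2_MET against WT, 5 of the 9 tested markers of the list fell and Reln alone rose. Of all tested genes, 23.4% fell and 26.5% rose in that contrast. Of the 5 that fell, 3 were still called under total-count scaling. In CTNNB1_MET 5 fell and in NFE2L2_MET 2 fell, where 6.22% and 9.89% of all genes fell. The WT libraries spread widely in some of these markers, with Col1a1 at 54.5 to 326 CPM. Tspan8, a tetraspanin listed among both cholangiocyte and tumour markers, was highest in NFE2L2_MET at 124 ± 44.5 CPM. It stood at 0.77 ± 0.778 CPM in WT, 1.47 ± 0.362 in CTNNB1_NFE2L2, 8.89 ± 1.39 in CTNNB1_MET and 28.8 ± 15.5 in CTNNB1_NFE2L2_MET.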
